A study of Mus musculus with 22 samples.

Results

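The 45 genes described here make the machinery that copies DNA and the enzymes that supply its deoxynucleotides. They were chosen by gene symbol from an RNA table of 36555 mouse genes. All 45 were found in it, and all 45 passed the filter on low values, so every member was tested. They fall into 8 roles: origin recognition and licensing with 10 genes, helicase activation with 6, polymerases and primase with 6, the clamp and its loader with 6, single-strand binding and Okazaki fragment maturation with 5, nucleotide supply with 5, chromatin assembly with 2, and fork protection and checkpoint with 5.

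The RNA came from liver tissue of mice in a study of hepatoblastoma, a liver cancer of early childhood that was driven here by YAP1 under the control of doxycycline. The hbHep group, a name that the labels do not spell out, holds 3 mice of genotype FAH Delta Exon 5 at days 121, 114 and 117, each sequenced as a pair of technical libraries that were averaged. The day 6 tumors are 4 tumors of 1 mouse that had been off doxycycline for 6 days, and the YAP1 ON tumors are 4 tumors of 1 other mouse on doxycycline. Both tumor groups are labelled B6N.FVB(Cg) with the transgene Tg(CAG-rtTA3)4288Slowe, in which the CAG promoter drives rtTA3, the protein that answers to doxycycline. The sources used here do not give the promoter of YAP1 itself. The FAH livers are 3 livers of genotype FAH Delta Exon 5 from mice kept on NTBC, a drug that protects the liver when Fah is missing; their sample names also carry the letters WT. Each tumor group is 1 mouse, so the mouse and its treatment cannot be told apart. The fit took all 4 groups together and gave each gene 1 estimate of spread. That estimate draws on differences among tumors of the same animal, among hbHep mice and among FAH livers. A p-value between the tumor groups has no replicate mice of either treatment behind it. The tumors and the other groups also differ in genotype.

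Replication begins at origins bound by the origin recognition complex, where Cdc6 and Cdt1 load the ring of Mcm2 to Mcm7 that becomes the replicative helicase. Cdc45 and the GINS complex activate the ring, polymerases and a sliding clamp copy both strands, and a small set of enzymes keeps the deoxynucleotide pools filled. Many of these genes are switched on by E2F factors as cells enter S phase, and most hepatocytes of an adult liver are outside the cell cycle.

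Values are abundances in scaled reads per base, which can be compared between genes because length is divided out. In the check of the driver, Yap1 lay between 937 and 1308 in hbHep, between 1095 and 1248 in day 6 tumors, between 5263 and 10748 in YAP1 ON tumors and between 1136 and 1356 in FAH livers. The deposited signal summed to 20.07 to 26.51 M (M for the metric prefix mega) per hbHep library, 19.61 to 22.65 M per day 6 tumor, 15.99 to 19.18 M per YAP1 ON tumor and 31.07 to 42.12 M per FAH liver. Absolute depth is unknown, and between 21065 and 25605 genes were above 0 in a library. The libraries of 1 hbHep mouse differed by a median ratio of 1.13 over the 45 genes, with 2 of 135 ratios at 2 or more and the largest, 2.24, for Orc1. The highest hbHep mouse stood above the lowest by a median ratio of 1.45, with the largest, 3.84, for Mcm10. Each library was read as holding all cell types of its tissue piece, so fewer cells of a type and less RNA per cell cannot be told apart. The label of the FAH livers names hepatocytes as the cell type.

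Promoters are shown for members at the lowest and highest ends of the log2 fold changes of day 6 against YAP1 ON tumors, because the genes share a known class of regulator whose binding sites can be searched for. The table of RefSeq promoters (GRCm38.p6) held 40 promoters of 36 of the 45 members, each from 250 bases before to 50 bases after a start. The 5 sequences below are the 160 bases before the start, in the direction of the gene, with matches to the E2F site in capitals. The first 3 belong to the members with the lowest log2 fold change at day 6 and the last 2 to members among the 3 highest. The table's start for Timeless, the other of the 3 highest, lies 6003 bases inside the gene, so its window is not shown; the starts used lie 442 bases inside the gene for Cdc6, 41 for Mcm5 and 32 for Pola2.
Mcm5, chr8:75109349-75109508, plus strand: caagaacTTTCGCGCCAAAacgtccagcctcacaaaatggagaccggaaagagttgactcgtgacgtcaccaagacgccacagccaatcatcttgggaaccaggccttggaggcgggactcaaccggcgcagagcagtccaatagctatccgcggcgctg
Cdc6, chr11:98907991-98908150, plus strand: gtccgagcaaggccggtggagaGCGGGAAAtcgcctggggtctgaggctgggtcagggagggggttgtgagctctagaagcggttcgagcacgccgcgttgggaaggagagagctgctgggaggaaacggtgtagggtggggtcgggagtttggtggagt
Rrm2, chr12:24708094-24708253, plus strand: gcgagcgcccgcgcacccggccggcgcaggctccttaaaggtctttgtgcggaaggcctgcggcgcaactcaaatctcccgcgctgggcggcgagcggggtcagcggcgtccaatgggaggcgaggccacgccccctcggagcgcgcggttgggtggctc
Pola2, chr19:5964207-5964366, minus strand: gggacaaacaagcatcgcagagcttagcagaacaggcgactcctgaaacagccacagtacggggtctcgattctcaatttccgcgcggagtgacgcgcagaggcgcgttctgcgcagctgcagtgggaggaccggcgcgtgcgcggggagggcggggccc
Mcm10, chr2:5012792-5012951, minus strand: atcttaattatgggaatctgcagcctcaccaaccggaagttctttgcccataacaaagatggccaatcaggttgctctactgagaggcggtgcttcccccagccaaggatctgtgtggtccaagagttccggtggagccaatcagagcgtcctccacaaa

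The Mcm5 window holds a pair of overlapping matches and the Cdc6 window holds 1 match, read on the opposite strand. The windows of Rrm2, Pola2 and Mcm10 hold no match to the E2F site. The E2F site was searched on both strands in 4 forms, TTTCCCGC, TTTCGCGC, TTTGCCGC and TTTGGCGC. At least 1 form stood in 13 of the 40 member promoters (32.5%) and in 744 of all 32851 promoters of the table (2.26%). With only the 250 bases before the start, the shares were 20.0% and 1.86%. The table also holds genes that were not tested here. Counted by gene over the full window, 13 of 36 members had a match, beside 508 of the 12466 tested genes in the table (4.08%). The 13 promoters held 19 matches, of which 4 began within 100 bases before the start. The CCAAT box, a general promoter element, stood in 57.5% of member promoters and 37.4% of all. The GC box GGGCGG stood in 67.5% of member promoters and 35.7% of all, and the CHR element TTTGAA, known from promoters of mitosis genes, in 10% of member promoters and 17.9% of all. All were counted on both strands, and overlapping matches were counted separately.

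The 13 members with an E2F match were Cdc6, Cdt1, Clspn, Gins3, Lig1, Mcm3, Mcm5, Mcm6, Mcm7, Orc1, Pola1, Pold1 and Rfc3. Of these, 11 fell at day 6 against YAP1 ON tumors, with a median log2 fold change of -1.05. Of the 23 members in the table without a match, 16 fell, with a median of -0.75; the 9 members without a promoter in the table had a median of -0.74, with 7 of them lower. Among other tested genes of the table, 79 of 495 with a match (16%) and 1284 of 11935 without one (10.8%) fell. These counts are a description, and the difference between genes with and without a match was not tested.

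Replication genes were lower 6 days after doxycycline was withdrawn. Of the 45 members, 34 fell in day 6 tumors against YAP1 ON tumors (75.6%), while 10.8% of all 17953 genes tested fell. Exo1, among these 34, passed the filter on low values only through the YAP1 ON tumors. By limma, no member rose (0 of 45, also 0 at an unadjusted p under 0.05), while 12.8% of all genes rose. The median log2 fold change of the members was -0.92, against 0.02 over all genes tested, and 42 of 45 values lay below 0. Falls of 2-fold or more were found for 19 members (42.2%) and for 5.26% of all genes. A fold change throughout is a difference of mean log2(abundance + 1), which understates the change of low genes, and a gene is said to rise or fall where limma's p, adjusted by Benjamini-Hochberg over all genes tested, was under 0.05. The 45 genes summed to 7744 to 8137 in the day 6 tumors and to 12205 to 15485 in the YAP1 ON tumors, without overlap. Leaving out any 1 of the 14 samples gave 29 to 36 members lower and 0 higher.

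**Figure D1:**
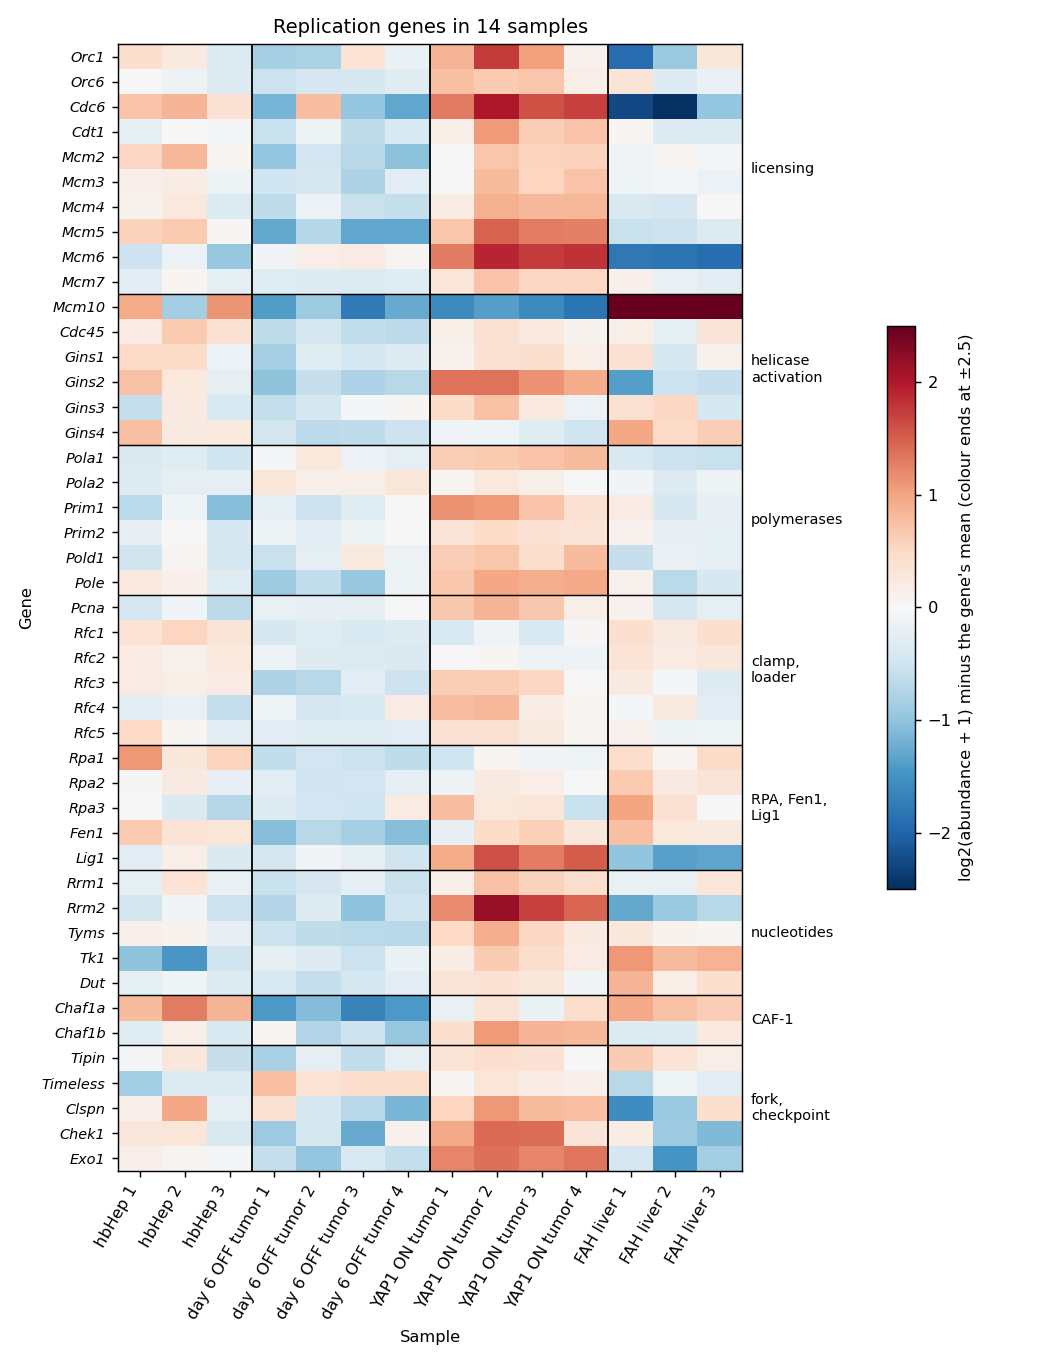
Abundance of the 45 members (rows, ordered by role) in the 14 samples (columns, in the order hbHep, day 6 tumors, YAP1 ON tumors, FAH livers), as log2(abundance + 1) minus the mean of the gene, with colours ending at 2.5 above and below. The YAP1 ON columns are above the gene mean for most rows, and Mcm10 stands apart with its high values in the FAH livers.

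**Figure D2:**
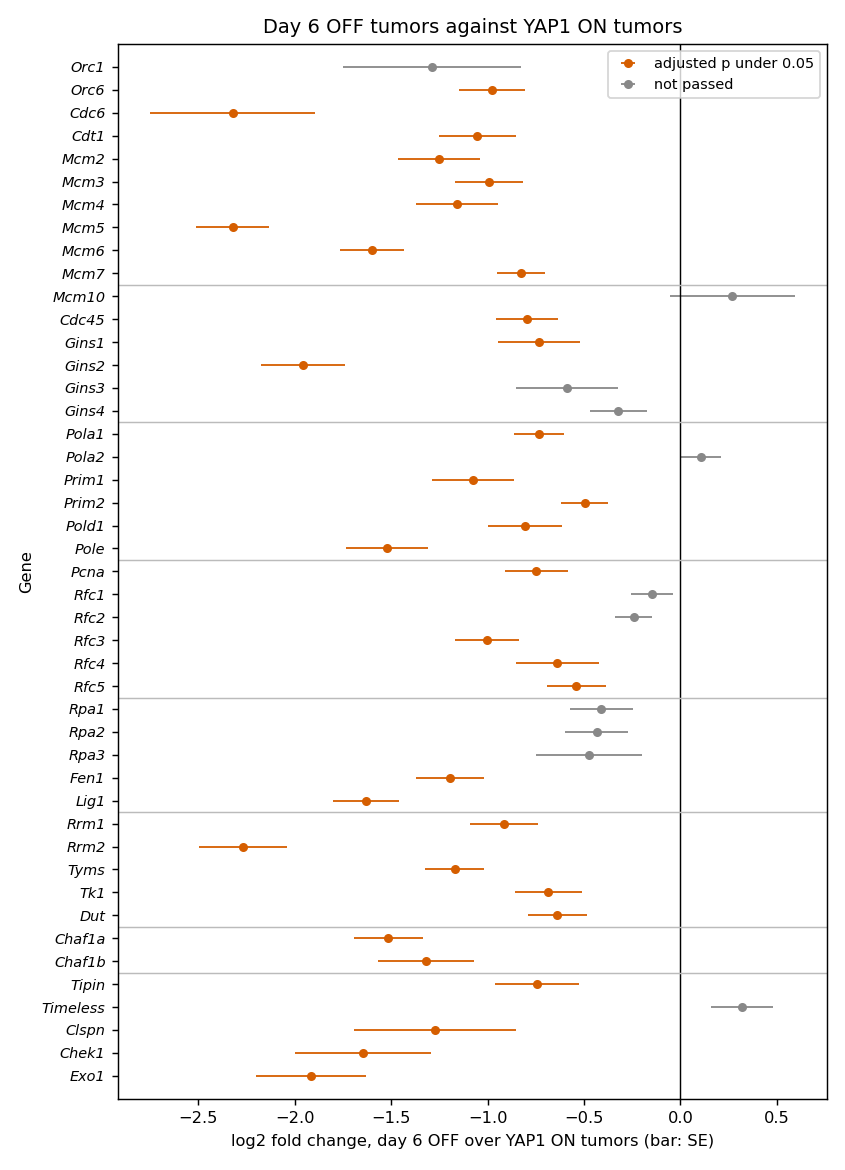
Log2 fold change of each member in day 6 tumors against YAP1 ON tumors, with bars of 1 SE and members ordered by role. The values run between -2.32 for Mcm5 and 0.32 for Timeless, and 34 of 45 fell by limma.

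The other 5 comparisons show where the hbHep and FAH livers stand. They share their samples with each other and with the comparison above, so their counts are not independent. In hbHep against YAP1 ON tumors, 25 members were lower and 5 higher (55.6% and 11.1%), beside 26.3% and 28.8% of all genes. In hbHep against day 6 tumors, 4 members were lower and 17 higher (8.89% and 37.8%), beside 21.7% and 24.1% of all genes. In YAP1 ON tumors against FAH livers, 7 members were lower and 27 higher (15.6% and 60%), beside 33.5% and 34.4% of all genes; under quantile normalization 6 were lower and 16 higher. In day 6 tumors against FAH livers, 17 members were lower and 6 higher (37.8% and 13.3%), beside 31.0% and 31.6% of all genes; under quantile normalization 28 were lower and 4 higher.

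hbHep and FAH livers, which share their genotype label, differed in fewer members. Of the 45, 3 were lower and 6 higher in hbHep (6.67% and 13.3%), shares below the 17.1% and 19.9% of all genes that passed. Under quantile normalization 6 were lower and 6 higher, and 5 were lower without hbHep mouse 1. Higher were Cdc6 (2.60), Mcm6 (1.30), Gins2 (1.08), Lig1 (1.07), Exo1 (0.97) and Mcm5 (0.89), and lower were Mcm10 (-3.10), Tk1 (-1.90) and Dut (-0.69), as log2 fold changes. The call on Gins2 was lost in a fit of these groups alone (limma adjusted p = 0.0522), and that on Exo1 without any 1 hbHep mouse or FAH liver 2 (log2 0.69 to 1.02). Mcm10 was at -2.48 without hbHep mouse 2. The median log2 fold change of the members was 0.06, and it turned to -0.10 under quantile normalization, so no direction is given for the members as a whole. The summed abundance of the 45 genes was 11094 to 13359 in the hbHep mice and 13542 to 16486 in the FAH livers, where Mcm10 alone held 2644 to 4044. The median was -0.57 in hbHep against YAP1 ON tumors, 0.42 in hbHep against day 6 tumors, 0.50 in YAP1 ON tumors against FAH livers and -0.36 in day 6 tumors against FAH livers. In the paragraphs on roles, calls from these 5 comparisons are named where they kept their direction and their side of the threshold under all 23 alternatives tried, unless a lost call is stated. Role counts at day 6 against YAP1 ON tumors stand beside the 10.8% of all genes that fell there.

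Of the 10 genes that mark and license origins, 9 fell at day 6, with a median log2 fold change of -1.20, and Mcm5 and Cdc6 had the lowest log2 fold changes of all 45 members. Gene positions are those of RefSeq on GRCm38.p6. Mcm5 (ENSMUSG00000005410, chr8:75109468-75128439), a subunit of the helicase ring, was at 422, 446 and 288 in the hbHep mice, 116, 173, 114 and 114 in the day 6 tumors, 458, 789.9, 687 and 673 in the YAP1 ON tumors and 192, 198 and 222 in the FAH livers. All 4 day 6 tumors lay under every sample of the other groups, with tumor 2 the highest of the 4 (log2 fold change -2.32, SE 0.19, adjusted p = 4.84e-07, limma). Mcm7 (ENSMUSG00000029730, chr5:138164583-138172111), another subunit, was at 222, 278 and 231 in the hbHep mice, 218, 214, 212 and 218 in the day 6 tumors, 331, 443, 385 and 384 in the YAP1 ON tumors and 292, 236 and 223 in the FAH livers. The day 6 and YAP1 ON tumors did not overlap, and the fall was the smallest of the role (log2 fold change -0.83, SE 0.12, adjusted p = 0.000154).

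Cdc6 (ENSMUSG00000017499, chr11:98907709-98923942), the loader of the ring, was at 55.6, 60.9 and 43.0 in the hbHep mice, 14.4, 58.1, 16.6 and 13.0 in the day 6 tumors, 84.2, 139, 103 and 111 in the YAP1 ON tumors and 6.26, 4.43 and 16.6 in the FAH livers. Tumor 2 had the only day 6 value within the hbHep range, and all 4 lay under the YAP1 ON tumors (log2 fold change -2.32, SE 0.43, adjusted p = 0.000898). Without that tumor the log2 fold change was -2.80. Mcm6, a further ring subunit, averaged 184 ± 50.03 in hbHep, 279.6 ± 24.7 in day 6 tumors, 858 ± 147 in YAP1 ON tumors and 72.2 ± 3.35 in FAH livers (SD, n = 3, 4, 4 and 3). It fell at day 6 (log2 fold change -1.60, SE 0.17, adjusted p = 4.86e-06) and was higher than in FAH livers in each of the other groups, with log2 fold changes of 1.30 for hbHep, 1.93 for day 6 tumors and 3.54 for YAP1 ON tumors. Mcm2, Mcm3 and Mcm4, the remaining ring subunits, had log2 fold changes of -1.25, -0.99 and -1.16 at day 6. Cdt1, which loads the ring with Cdc6, and Orc6, a subunit of the origin recognition complex, fell by 1.05 and by 0.98 on the log2 scale. Orc1, another subunit of that complex, was at 5.75 to 14.3 in day 6 tumors and 11.9 to 39.3 in YAP1 ON tumors and did not pass (log2 fold change -1.29, SE 0.46, adjusted p = 0.0554); it passed when FAH liver 1 or 3, day 6 tumor 3 or YAP1 ON tumor 4 was left out (log2 -1.56 to -1.29, adjusted p from 0.0293 to 0.0391).

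hbHep was lower than YAP1 ON tumors for 6 of 10 licensing genes (26.3% of all genes) and higher than day 6 tumors for 4 (24.1% of all genes). Against YAP1 ON tumors, Mcm6 (-2.23), Mcm5 (-0.76), Orc6 (-0.72) and Mcm7 (-0.66) were lower (log2 fold changes in parentheses). Against day 6 tumors, Mcm5 (1.57) and Mcm2 (1.25) were higher. Mcm6 was also lower against day 6 tumors (-0.63), a call that was lost without hbHep mouse 3 (log2 -0.43, adjusted p = 0.0633). Against FAH livers, Cdc6 (2.60), Mcm6 (1.30) and Mcm5 (0.89) were higher. The YAP1 ON tumors were above the FAH livers for 9 of 10 licensing genes, beside 34.4% of all genes. Of the 9, Cdc6 (3.62), Mcm6 (3.54), Orc1 (1.78), Mcm5 (1.65) and Mcm7 (0.62) held under every alternative.

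The helicase activators were split. At day 6, 3 of 6 fell, with a median of -0.66. Gins2 (ENSMUSG00000031821, chr8:120581266-120589075), a GINS subunit, was at 269, 194 and 139 in the hbHep mice, 79.6, 109, 94.6 and 99.1 in the day 6 tumors, 418, 414, 355 and 309 in the YAP1 ON tumors and 61.7, 112 and 108 in the FAH livers. Every day 6 value lay under the hbHep mice and the YAP1 ON tumors, with overlap only with the FAH livers (log2 fold change -1.96, SE 0.22, adjusted p = 9.61e-06). Mcm10 (ENSMUSG00000026669, chr2:4990724-5012791), which helps to start the activated helicase, was at 556, 163 and 634 in the hbHep mice, 111, 157, 86.3 and 122 in the day 6 tumors, 97.3, 113, 96.3 and 81.8 in the YAP1 ON tumors and 4044, 3456 and 2644 in the FAH livers. The tumor groups overlapped, and every FAH liver was above every other sample; at day 6 the gene did not pass (log2 fold change 0.27, SE 0.33, adjusted p = 0.619).

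Mcm10 was lower than in FAH livers in all 3 other groups, with log2 fold changes of -3.10 for hbHep, -4.83 for day 6 tumors and -5.10 for YAP1 ON tumors. hbHep was higher than day 6 tumors (1.72) and YAP1 ON tumors (1.99). hbHep mouse 2 was far below mice 1 and 3, and without it these log2 fold changes were -2.48 against FAH livers, 2.34 against day 6 tumors and 2.61 against YAP1 ON tumors. No RefSeq gene overlaps Mcm10 or lies within 1000 bases of it.

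Cdc45, which joins the ring to form the active helicase, fell at day 6 (log2 fold change -0.80, SE 0.16, adjusted p = 0.00169) and averaged 119 ± 19.9 in hbHep, 59.4 ± 4.59 in day 6 tumors, 104 ± 9.43 in YAP1 ON tumors and 96.2 ± 18.1 in FAH livers. Gins1 fell as well (log2 fold change -0.73, SE 0.21, adjusted p = 0.0210), a call lost without day 6 tumor 1 or YAP1 ON tumor 2 or 3 (log2 -0.70 to -0.61, adjusted p from 0.0566 to 0.0765). Gins3 and Gins4 did not pass at day 6, with log2 fold changes of -0.59 and -0.32. hbHep was higher than day 6 tumors for Gins2 (1.02), Cdc45 (0.99) and Gins4 (0.98), and lower than YAP1 ON tumors for Gins2 (-0.94) while higher for Gins4 (0.65). Gins4 averaged 609.6 ± 135 in hbHep, 305 ± 19.2 in day 6 tumors, 384 ± 49.8 in YAP1 ON tumors and 734 ± 133 in FAH livers, and both tumor groups were below the FAH livers.

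Of the polymerase and primase genes, 5 of 6 fell at day 6, with a median of -0.77. Pole (ENSMUSG00000007080, chr5:110286319-110337468), the catalytic subunit of the polymerase that copies the leading strand, was at 115, 106 and 78.5 in the hbHep mice, 51.9, 62.9, 49.5 and 88.6 in the day 6 tumors, 156, 191, 183 and 187 in the YAP1 ON tumors and 105, 60.02 and 73.0 in the FAH livers. All day 6 tumors were under the YAP1 ON tumors and overlapped the hbHep mice and the FAH livers (log2 fold change -1.52, SE 0.21, adjusted p = 7.74e-05). Pola2 (ENSMUSG00000024833, chr19:5940543-5964238), the accessory subunit of polymerase alpha, was at 277, 296 and 291 in the hbHep mice, 429, 378, 382 and 431 in the day 6 tumors, 363, 415, 383 and 345 in the YAP1 ON tumors and 329, 279 and 316 in the FAH livers. The tumor groups overlapped and all hbHep mice lay under them, and the gene did not pass at day 6 (log2 fold change 0.11, SE 0.10, adjusted p = 0.518).

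Pola1, the catalytic subunit of polymerase alpha, fell by 0.73 on the log2 scale at day 6, and Pold1, that of the main lagging-strand polymerase, by 0.81. The primase subunits, which lay the RNA primers, fell by 1.08 for Prim1 and by 0.50 for Prim2. All 6 genes of this role were lower in hbHep than in YAP1 ON tumors: Prim1 (-1.44), Pola1 (-1.08), Pold1 (-0.93), Pole (-0.85), Prim2 (-0.56) and Pola2 (-0.38). Of all genes, 26.3% were lower in that comparison. None of the 6 passed between hbHep and FAH livers by limma, and none had an unadjusted p under 0.05. Of all genes, 17.1% were lower and 19.9% higher in hbHep there. Summed over the role, abundance was 854 to 1097 in hbHep, 1080 to 1224 in day 6 tumors, 1576 to 1823 in YAP1 ON tumors and 924 to 1159 in FAH livers. The hbHep mice and the FAH livers overlapped in this sum, and the YAP1 ON tumors stood above every other sample.

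Of the clamp and its loader, 4 of 6 genes fell at day 6, with a median of -0.59. Pcna, the sliding clamp that holds polymerases on DNA, averaged 456 ± 94.9 in hbHep, 525 ± 36.9 in day 6 tumors, 895 ± 173 in YAP1 ON tumors and 523 ± 102 in FAH livers (SD, n = 3, 4, 4 and 3) and fell at day 6 (log2 fold change -0.75, SE 0.16, adjusted p = 0.00335). Rfc3 (ENSMUSG00000033970, chr5:151642817-151651208), a small loader subunit, was at 195, 189.9 and 195 in the hbHep mice, 98.9, 104, 138 and 118 in the day 6 tumors, 259, 258, 242 and 169.7 in the YAP1 ON tumors and 197, 165 and 135 in the FAH livers. Values of day 6 tumors lay under those of the hbHep mice and the YAP1 ON tumors (log2 fold change -1.003, SE 0.17, adjusted p = 0.000359). Rfc1 (ENSMUSG00000029191, chr5:65261852-65338617), the large loader subunit, was at 1529.7, 1743 and 1495 in the hbHep mice, 909, 981, 923 and 961 in the day 6 tumors, 928, 1133, 920.3 and 1226 in the YAP1 ON tumors and 1576, 1412 and 1579.9 in the FAH livers. The tumor groups overlapped, and both lay under the hbHep mice and FAH livers; Rfc1 did not pass at day 6 (log2 fold change -0.15, SE 0.11, adjusted p = 0.379).

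Rfc4 and Rfc5, small loader subunits, fell at day 6 by 0.64 and by 0.54 on the log2 scale. Their calls were not kept in every fit with 1 tumor left out. That of Rfc4 was lost without any 1 of day 6 tumors 1 to 3 or YAP1 ON tumors 1 and 2 (log2 -0.66 to -0.52, limma adjusted p from 0.0746 to 0.132). That of Rfc5 was lost without YAP1 ON tumor 2 (log2 -0.50, limma adjusted p = 0.0516). Rfc2, the remaining subunit, did not pass at day 6 (-0.24). Against day 6 tumors, hbHep was higher for Rfc3 (0.76), Rfc1 (0.75) and Rfc2 (0.49), and against YAP1 ON tumors it was higher for Rfc1 (0.60) and lower for Pcna (-0.97). No gene of this role passed between hbHep and FAH livers by limma, with 0 at an unadjusted p under 0.05. Of all genes, 17.1% were lower and 19.9% higher in hbHep there.

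Of the genes for single-strand binding and Okazaki fragment maturation, 2 of 5 fell at day 6, with a median of -0.47. Lig1 (ENSMUSG00000056394, chr7:13277175-13311426), the ligase that seals Okazaki fragments, was at 253, 344 and 238 in the hbHep mice, 228, 293, 262 and 216 in the day 6 tumors, 581, 938, 738 and 873 in the YAP1 ON tumors and 154, 118 and 122 in the FAH livers. The YAP1 ON tumors stood above all other samples, the FAH livers below all, and hbHep overlapped the day 6 tumors (log2 fold change -1.63, SE 0.17, adjusted p = 5.07e-06). Rpa1 (ENSMUSG00000000751, chr11:75300259-75348454), the large subunit of the protein that coats single-stranded DNA, was at 4257, 2421 and 2917 in the hbHep mice, 1309, 1424, 1381 and 1283 in the day 6 tumors, 1419, 2054, 1909 and 1848 in the YAP1 ON tumors and 2693, 2055 and 2791 in the FAH livers. The tumor groups overlapped at 1 YAP1 ON tumor, and all hbHep mice lay above both; Rpa1 did not pass at day 6 (log2 fold change -0.41, SE 0.16, adjusted p = 0.0858), and it passed without hbHep mouse 1 (-0.41, adjusted p = 0.0367), without YAP1 ON tumor 1 (-0.52, adjusted p = 0.0363) and under quantile normalization (-0.64).

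Fen1, the nuclease that trims Okazaki fragments, averaged 272 ± 36.8 in hbHep, 107 ± 13.8 in day 6 tumors, 249 ± 54.6 in YAP1 ON tumors and 271 ± 56.9 in FAH livers and fell at day 6 (log2 fold change -1.19, SE 0.18, adjusted p = 0.000141). Rpa2 and Rpa3, the smaller subunits of the coating protein, had log2 fold changes of -0.44 and -0.47 and did not pass; Rpa2 passed without FAH liver 1 (-0.44, adjusted p = 0.0460). hbHep was above day 6 tumors for Fen1 (1.34) and Rpa1 (1.21), above YAP1 ON tumors for Rpa1 (0.80), below them for Lig1 (-1.48) and above FAH livers for Lig1 (1.07). The day 6 tumors were below FAH livers for Fen1 (-1.33), Rpa1 (-0.88) and Rpa2 (-0.77) and above them for Lig1 (0.92).

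All 5 genes of nucleotide supply fell at day 6, with a median of -0.92. Rrm2 (ENSMUSG00000020649, chr12:24708254-24714146), the small subunit of ribonucleotide reductase and the one made in S phase, was at 57.5, 75.7 and 54.6 in the hbHep mice, 47.8, 63.8, 38.9 and 55.7 in the day 6 tumors, 181, 364, 263 and 219.9 in the YAP1 ON tumors and 32.1, 41.7 and 49.1 in the FAH livers. The YAP1 ON tumors stood far above all other samples, and the day 6 tumors overlapped both hbHep and the FAH livers (log2 fold change -2.27, SE 0.23, adjusted p = 3.57e-06). Rrm1 (ENSMUSG00000030978, chr7:102441695-102469771), the large subunit, was at 123, 185 and 126 in the hbHep mice, 97.4, 107, 124 and 98.4 in the day 6 tumors, 161, 242, 215 and 196 in the YAP1 ON tumors and 127, 126 and 178 in the FAH livers. The tumor groups did not overlap, while hbHep mouse 2 reached into the YAP1 ON range (log2 fold change -0.92, SE 0.18, adjusted p = 0.00129).

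Tyms (ENSMUSG00000025747, chr5:30038546-30073645), which makes the thymidine nucleotide of DNA from its uridine counterpart, was at 131, 128 and 104 in the hbHep mice, 82.1, 77.4, 75.0 and 74.0 in the day 6 tumors, 170.1, 226, 172 and 141 in the YAP1 ON tumors and 148, 127 and 124 in the FAH livers. All 4 day 6 tumors lay under every other sample (log2 fold change -1.17, SE 0.15, adjusted p = 4.21e-05). Tk1 (ENSMUSG00000025574, chr11:117815519-117826087), which recovers thymidine for the same pool, was at 226, 165 and 322 in the hbHep mice, 382, 365, 313 and 402 in the day 6 tumors, 517, 707, 615 and 523 in the YAP1 ON tumors and 959.6, 785 and 829 in the FAH livers. The FAH livers were the highest, then the YAP1 ON tumors, and hbHep mouse 3 reached into the day 6 range (log2 fold change -0.69, SE 0.17, adjusted p = 0.00895). Dut (ENSMUSG00000027203, chr2:125247248-125259049), which removes the uridine form before it can enter DNA, was at 224, 242 and 206 in the hbHep mice, 199, 173, 192 and 215 in the day 6 tumors, 327, 333, 315 and 246 in the YAP1 ON tumors and 472, 292 and 342 in the FAH livers. Day 6 tumors were under all YAP1 ON tumors and overlapped hbHep, and the FAH livers overlapped the YAP1 ON tumors (log2 fold change -0.64, SE 0.15, adjusted p = 0.00565).

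All 5 were also lower in hbHep than in YAP1 ON tumors, beside 26.3% of all genes. Rrm2 (-1.99) and Tk1 (-1.35) held under every alternative. The calls of Tyms, Rrm1 and Dut were lost without single samples: that of Tyms without hbHep mouse 3 (log2 -0.43, adjusted p = 0.0670), that of Rrm1 without hbHep mouse 1 or 3 or YAP1 ON tumor 2, 3 or 4 (log2 -0.51 to -0.40, adjusted p from 0.0554 to 0.140), and that of Dut without hbHep mouse 1 or 3 or YAP1 ON tumor 1, 2 or 3 (log2 -0.44 to -0.38, adjusted p from 0.0634 to 0.107). Against FAH livers, hbHep was lower for Tk1 (-1.90) and Dut (-0.69). Against day 6 tumors, hbHep was higher for Tyms (0.64) and lower for Tk1 (-0.67), where the call on Tk1 was lost without hbHep mouse 2 (log2 -0.43, adjusted p = 0.0599). The 5 genes summed to 761 to 813 in hbHep, 743 to 845 in day 6 tumors, 1325 to 1873 in YAP1 ON tumors and 1373 to 1738 in FAH livers. Neither hbHep nor day 6 tumors reached the range of the YAP1 ON tumors or the FAH livers in this sum. In the FAH livers Tk1 alone held 785 to 959.6 of it, so their place in the sum leans on 1 gene. For Rrm1 and Tyms, hbHep and the FAH livers overlapped. By single genes, YAP1 ON tumors were above FAH livers for Rrm2 (2.59) and below them for Tk1 (-0.55), where the Tk1 call was lost without FAH liver 1 (log2 -0.47, adjusted p = 0.0699).

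**Figure D3:**
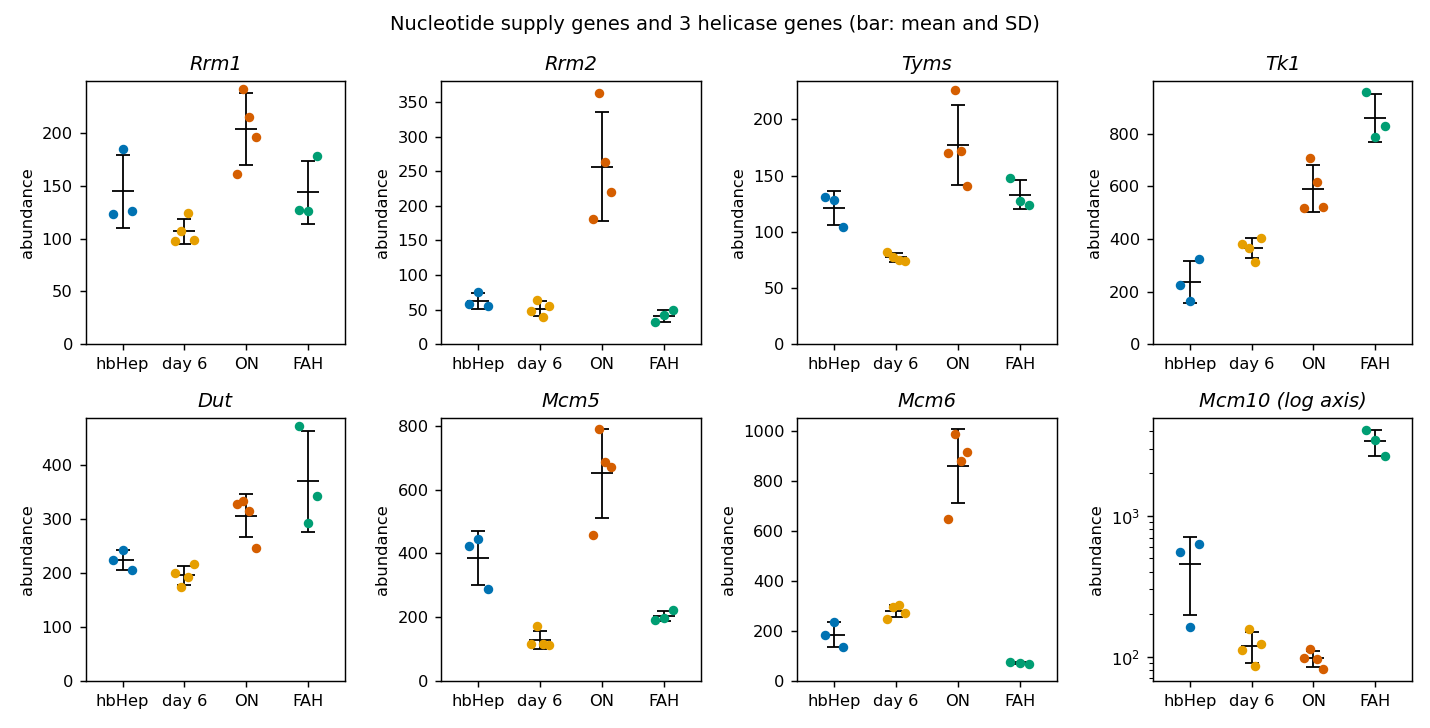
Abundance (scaled reads per base) of Rrm1, Rrm2, Tyms, Tk1, Dut, Mcm5, Mcm6 and Mcm10 in each sample by group, with the mean and SD; the axis of Mcm10 is logarithmic. The day 6 tumors lie under the YAP1 ON tumors in every panel but that of Mcm10, where the tumor groups overlap and the FAH livers lie between 2644 and 4044.

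Both chromatin assembly genes fell at day 6. Chaf1a (ENSMUSG00000002835, chr17:56040416-56068026), the large subunit of the CAF-1 complex that places histones on new DNA, was at 289, 403 and 300.0 in the hbHep mice, 61.1, 77.4, 51.7 and 60.5 in the day 6 tumors, 147, 209, 149 and 225 in the YAP1 ON tumors and 323, 277 and 255 in the FAH livers. The 4 day 6 tumors were the lowest samples, the YAP1 ON tumors came next, and hbHep and the FAH livers overlapped above them (log2 fold change -1.51, SE 0.18, adjusted p = 1.61e-05). Chaf1b (ENSMUSG00000022945, chr16:93883900-93906115), the middle subunit of the same complex, was at 27.2, 37.5 and 25.8 in the hbHep mice, 34.9, 19.95, 23.1 and 17.1 in the day 6 tumors, 44.8, 71.7, 61.9 and 59.7 in the YAP1 ON tumors and 26.4, 26.3 and 40.1 in the FAH livers. The day 6 tumors overlapped hbHep and the FAH livers and lay under the YAP1 ON tumors (log2 fold change -1.32, SE 0.25, adjusted p = 0.00115). Chaf1a was higher in hbHep than in day 6 tumors (2.38) and YAP1 ON tumors (0.87) and lower in both tumor groups than in FAH livers, with log2 fold changes of -2.18 for day 6 tumors and -0.66 for YAP1 ON tumors.

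Of the fork protection and checkpoint genes, 4 of 5 fell at day 6, with a median of -1.27. Exo1 (ENSMUSG00000039748, chr1:175880768-175911396), a nuclease that trims DNA ends and stalled forks, was at 9.16, 8.71 and 7.91 in the hbHep mice, 5.11, 3.76, 6.12 and 5.10 in the day 6 tumors, 20.6, 22.9, 20.5 and 22.3 in the YAP1 ON tumors and 5.91, 2.34 and 4.10 in the FAH livers. The YAP1 ON tumors were above all other samples, the hbHep mice next, and the day 6 tumors overlapped the FAH livers (log2 fold change -1.92, SE 0.29, adjusted p = 0.000142). Timeless (ENSMUSG00000039994, chr10:128232063-128252941), which travels with the fork, was at 87.3, 124 and 124 in the hbHep mice, 266, 199, 210.1 and 213 in the day 6 tumors, 161, 195, 179.9 and 173 in the YAP1 ON tumors and 97.6, 146 and 129.6 in the FAH livers. All 4 day 6 tumors lay above the YAP1 ON tumors, which lay above hbHep and the FAH livers, and the gene still did not pass at day 6 (log2 fold change 0.32, SE 0.16, adjusted p = 0.177).

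Chek1, the kinase that restrains the cell cycle when replication stalls, fell at day 6 (log2 fold change -1.64, SE 0.35, adjusted p = 0.00292). Tipin, the partner of Timeless, fell (log2 fold change -0.74, SE 0.22, adjusted p = 0.0222), a call lost without day 6 tumor 1 or 3 or YAP1 ON tumor 1, 2 or 3 (log2 -0.72 to -0.63, adjusted p from 0.0527 to 0.0792). Clspn, which carries the stall signal to Chek1, fell (log2 fold change -1.27, SE 0.42, adjusted p = 0.0382), a call lost without any 1 of day 6 tumors 2 to 4 or YAP1 ON tumors 1 to 4 (log2 -1.36 to -1.05, adjusted p from 0.0567 to 0.116). Timeless was lower in hbHep than in both tumor groups, with log2 fold changes of -0.995 against day 6 tumors and -0.68 against YAP1 ON tumors, and higher in day 6 tumors than in FAH livers (0.84). Exo1 was lower in hbHep than in YAP1 ON tumors (-1.23) and higher in YAP1 ON tumors than in FAH livers (2.20). It was also higher in hbHep than in FAH livers (0.97), a call lost without any 1 hbHep mouse or FAH liver 2 (log2 0.69 to 1.02, adjusted p from 0.0570 to 0.105).

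Genes with related tasks were set beside the members. Over all genes tested, 10.8% fell and 12.8% rose at day 6 against YAP1 ON tumors. Of 33 other replication factors, 13 fell and 0 rose at day 6 by limma (0 also at an unadjusted p under 0.05), with a median of -0.32. The lowest were Asf1b (-1.91), a histone chaperone, and Cdc7 (-1.38), the kinase that fires origins; the highest, Top2b (0.19) and Pold2 (0.13), did not pass. Of 30 other nucleotide enzymes, 4 fell and 4 rose, near the shares of all genes, with a median of -0.03. Ctps (-1.90), which makes cytidine nucleotides, and Dck (-0.70), which recovers deoxycytidine, were lowest, and the folate enzymes Shmt1 (0.79) and Shmt2 (1.38) were highest. Both of these lists held smaller shares of falling genes than the 45 members, a difference that was not tested.

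Of 14 E2F factors and regulators of S phase entry, 6 fell and 1 rose at day 6, with a median of -0.55. Of all genes tested, 10.8% fell and 12.8% rose there. Ccna2 (-3.08) and Ccne1 (-1.73), the cyclins of S phase and its entry, were lowest; E2f8 (1.63), a repressor of the E2F family, was highest and Rbl2 (0.25), the next, did not pass. All 18 mitosis genes fell, with a median of -2.94, and the lowest were Ccnb2 (-4.55), a mitotic cyclin, and Cdc20 (-3.97), which triggers the exit from mitosis. The smallest falls were those of Kif11 (-2.35), a spindle motor, and Aurka (-1.60), a spindle kinase. The 18 mitosis genes summed to 2844 to 4048 in hbHep, 853 to 1315 in day 6 tumors, 6084 to 9618 in YAP1 ON tumors and 759 to 843 in FAH livers. All 18 were higher in hbHep than in FAH livers, beside 19.9% of all genes, with a median of 2.08. The median of the 45 members in that comparison was 0.06 and changed sign with the scaling. Whether the lists differ was not tested.

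**Figure D4:**
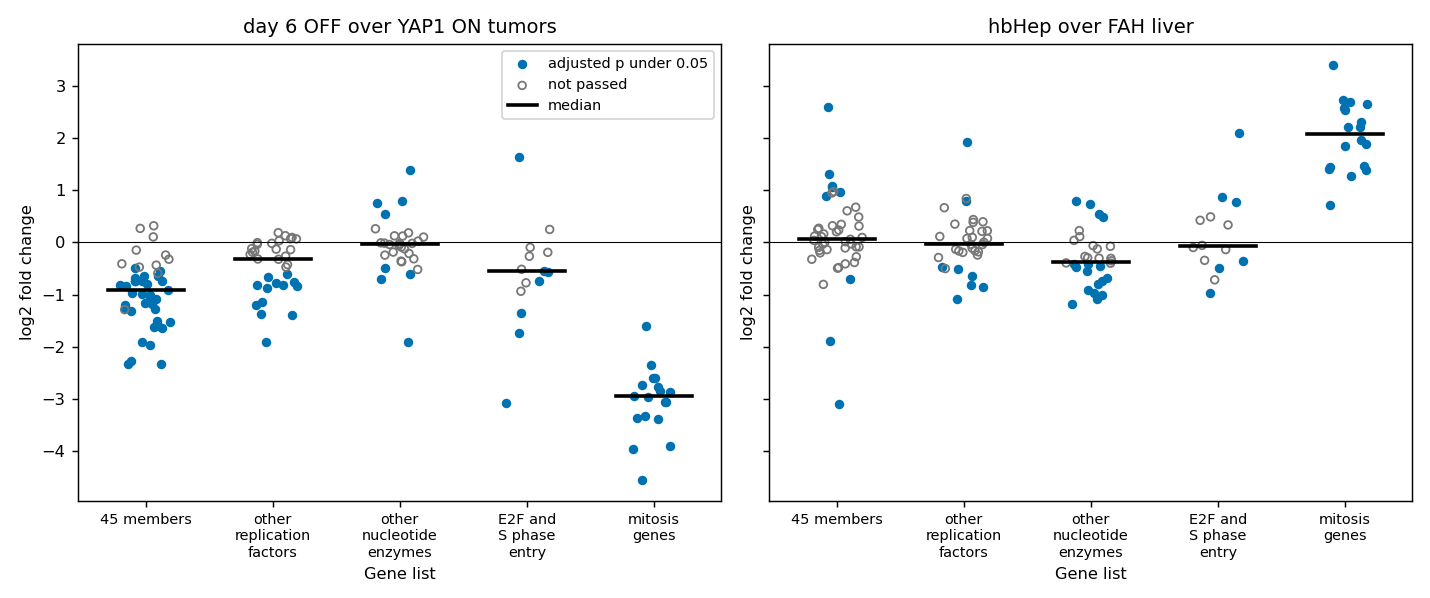
Log2 fold changes of the 45 members and of 4 related gene lists (points, 1 per gene; lines, medians) in day 6 tumors against YAP1 ON tumors and in hbHep against FAH livers. In the hbHep comparison the 18 mitosis genes all lie above 0, while the members spread on both sides; the median of the members, 0.06, turned to -0.10 under quantile normalization.

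Markers of cell types moved in both directions at day 6, and their part in the result was not tested. Of all genes tested, 10.8% fell and 12.8% rose in the same comparison. Of 6 cholangiocyte markers 4 fell, led by Spp1 (-3.35), while Krt19 and Cftr did not pass. The 6 summed to 1018 to 1424 in hbHep, 2561 to 7443 in day 6 tumors, 28645 to 37676 in YAP1 ON tumors and 649 to 725 in FAH livers. Spp1 alone averaged 3483 in day 6 tumors and 32296 in YAP1 ON tumors, so this sum mostly restates 1 gene. Of 11 macrophage markers 1 fell, Csf1r (-1.15), and the 11 summed to 12093 to 32538 in hbHep, 19378 to 24647 in day 6 tumors, 31744 to 43397 in YAP1 ON tumors and 5134 to 9557 in FAH livers. Both sums were lower in every day 6 tumor than in every YAP1 ON tumor. The largest part of the macrophage sum was Lyz2, at means of 6689 in day 6 tumors and 12229 in YAP1 ON tumors. Lyz2 did not pass (log2 fold change -0.84, limma adjusted p = 0.126). Of 9 hepatocyte markers with a row in the data, 5 rose, while Alb, the main protein of hepatocytes, lay at 54508 to 91505 in hbHep, 28620 to 44077 in day 6 tumors, 30628 to 57160 in YAP1 ON tumors and 169978 to 215528 in FAH livers. All FAH livers were above all other samples for Alb. Their label names hepatocytes as the cell type, and 8 endothelial markers, which mark another cell type, summed to 8730 to 9521 in them. Of 8 markers of stellate cells and fibroblasts 3 fell. Among the other lists, 3 of 9 T and NK cell, 1 of 5 B cell, 1 of 8 endothelial and 1 of 6 red cell precursor markers rose, and the 5 neutrophil markers, with log2 fold changes between -0.31 and 0.75, did not pass. Of all markers, Ly6g in 2 samples and Elane in 1 sample were at 0.

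Reads from sequence that transcripts of overlapping genes share could not be told apart where the counting did not use strand, and whether it did is not stated in the labels. Of the 45 members, 19 overlap another RefSeq gene and 10 overlap a protein-coding one: Orc1, Mcm7, Cdc45, Gins2, Rfc4, Rpa1, Fen1, Lig1, Tk1 and Chaf1a. Overlap was measured over whole gene spans, introns included, so the length of transcript sequence that is shared is not known. The values of these 10 may be uncertain to that extent. Tk1 shares 585 bases with Afmid, which averaged 956 in hbHep, 1644 in day 6 tumors, 940.7 in YAP1 ON tumors and 4349 in FAH livers, above Tk1 in each group. Chaf1a shares 982 bases with Ubxn6, at 1018 in hbHep, 748 in day 6 tumors, 729 in YAP1 ON tumors and 1067 in FAH livers. Lig1 shares 1547 bases with Zswim9, at 186 in hbHep, 289.9 in day 6 tumors, 466 in YAP1 ON tumors and 194 in FAH livers. The overlapping protein-coding gene had its highest mean in the same group as the member for Rpa1 (Smyd4, in hbHep), for Orc1 (Prpf38a), Mcm7 (Ap4m1), Gins2 (Gse1) and Lig1 (Zswim9) in YAP1 ON tumors, and for Tk1 in FAH livers. For Cdc45, Rfc4, Fen1 and Chaf1a the highest groups differed. The part of these neighbours in the members' values was not tested.

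Open chromatin was read from lists of intervals on mm10, 1 library each of YAP1 ON tumor, 14, 33 and 64 days off doxycycline, and liver labelled WT, so no test between groups was made. The start of a member lay inside an interval for 11 of 40 starts in the YAP1 ON tumor (27.5%, exact 95% interval 14.6 to 43.9%), beside 21.0% of 15693 starts of all tested genes. At day 14 it did for 28 of 40 starts (70.0%, 53.5 to 83.4%; all 59.0%), at day 33 for 31 (77.5%, 61.5 to 89.2%; all 62.2%), at day 64 for 29 (72.5%, 56.1 to 85.4%; all 60.3%) and in liver for 29 (72.5%, 56.1 to 85.4%; all 56.7%). The YAP1 ON list also had the narrowest intervals, with a median width of 21 bases against 61 to 71 bases in the other lists, and the part of width in its low share was not tested. In all 5 lists the share of all genes whose start lay inside an interval was within the members' 95% interval, which covers counting error only. The 95% intervals treat the 40 starts as independent, but the starts belong to 36 genes. For Fen1, Lig1 and Mcm7, starts lie so close that their windows of 500 bases overlap. No difference between members and all genes is therefore drawn from these intervals. With an interval within 500 bases counted instead, the share of all genes lay below the members' 95% interval in the YAP1 ON tumor, at days 33 and 64 and in liver. The same dependence among starts holds for that rule, with 1 library per group, so no difference is drawn from it either. By that rule 38 of 40 member starts had an interval in the YAP1 ON tumor (exact 95% interval 83.1 to 99.4%; all 81.7%), and 38 at day 14, where all genes were at the lower end of the same interval (all 83.1%). At day 33 it was 39 of 40 (86.8 to 99.9%; all 81.4%), and at day 64 and in liver 38 each (83.1 to 99.4%; all 81.6% at day 64 and 81.2% in liver).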

How the data were processed

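Total RNA of 17 libraries was measured as 1 table of scaled reads per base. The authors deposited this signal per gene and library; per the submitters' processing notes they used kallisto 0.45.0, with sleuth and bcl2fastq, and the build GRCm38.p6. The unit was read from the table's name and values. Low values were not whole multiples of 1 read, so no count model was used, and depth was compared only as reads per unit of signal. Relative to the library with the fewest reads per unit, FAH liver 2, this was 1.08 to 1.57 in hbHep and 1.63 to 2.25 in day 6 tumors. It was 2.09 to 3.05 in YAP1 ON tumors and 1 to 1.10 in FAH livers. For transcripts that are alike, kallisto assigns shared reads by estimation.

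The pair of technical libraries of each hbHep mouse was averaged, which left 14 samples. Deposited values were divided by median-of-ratios factors (0.9632 to 1.1), giving the abundance. Genes with an abundance of at least 10 in at least 3 samples were tested, which kept 17953. Values of log2(abundance + 1) were fitted with limma 3.58.1 under R 4.3.3, all 4 groups together and no covariates, using eBayes with its trend option. Two-sided p-values were adjusted by Benjamini-Hochberg over all genes tested, with a threshold of 0.05. Standard errors and adjusted p-values are limma's.

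The 45 members, the related lists, the markers and the rule for named genes were chosen with earlier results of these data known, and no count over a list was given a p-value. Members could all be named; values in every sample were given for the lowest and highest member of each role at day 6 against YAP1 ON tumors and for all of nucleotide supply, with others chosen after their values were seen (Cdc6). Of the related lists, the lowest pair and highest pair at day 6 were named.

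Promoters and gene positions came from RefSeq tables of GRCm38.p6, matched by symbol, with Python 3.11.15 and pandas 2.3.3. The 5 ATAC interval lists on mm10 were deposited by the authors, whose processing notes name BWA, Picard, SAMtools, cutadapt and bcl2fastq; which program made the intervals is not stated there. Exact binomial intervals used scipy 1.17.1. The score columns of the lists were not used.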

Additional observations from a re-analysis of the deposited data

Results flagged for a closer look

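In each group of 4 tumors, a value was picked out when its gap to the nearest of the other 3, divided by the range of the group, was above Dixon's 95% critical value for 4 samples. Chance picks about 1 in 20 such groups, and 6 of 90 were found. Day 6 tumor 2 gave 3 of them. Its Cdc6 abundance was 58.1, with the other day 6 tumors at 13.0 to 16.6, and without it Cdc6 fell by 2.80 on the log2 scale against YAP1 ON tumors (limma adjusted p = 4.68e-05). Its Mcm5 abundance was 172.6, with the others at 113.5 to 116.4, and without it Mcm5 fell by 2.47 (limma adjusted p = 6.59e-07). Its Mcm4 abundance was 43.6, with the others at 30.6 to 32.5, and without it Mcm4 fell by 1.27 (limma adjusted p = 0.00109). The summed abundance of 18 mitosis genes was also highest in that tumor among the day 6 tumors, at 1315.

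YAP1 ON tumor 1 was lowest of its group for Mcm4, at 54.8 with the others at 85.2 to 90.0, and without it Mcm4 fell by 1.32 (limma adjusted p = 0.000413). Day 6 tumor 4 was highest for Pcna, at 579.8 with the others at 501 to 512, and without it Pcna fell by 0.80 (limma adjusted p = 0.00606). Day 6 tumor 1 was highest for Rfc2, at 394.95 with the others at 339 to 348; Rfc2 did not pass with it, nor without it (log2 fold change -0.29, limma adjusted p = 0.0705).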

How the results depend on the processing

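Of 151 calls of members over the 6 comparisons, 110 kept their direction and their side of the threshold under all 23 alternatives: 29 of 34 for day 6 against YAP1 ON tumors, 22 of 30 for hbHep against YAP1 ON tumors, 15 of 21 for hbHep against day 6 tumors, 7 of 9 for hbHep against FAH livers, 18 of 34 for YAP1 ON tumors against FAH livers and 19 of 23 for day 6 tumors against FAH livers. Quantile normalization gave 6 members lower in hbHep against FAH livers and a median of -0.10, 16 higher in YAP1 ON tumors against FAH livers and 28 lower in day 6 tumors against FAH livers; Rpa1 in YAP1 ON tumors against FAH livers turned to 0.14 (limma adjusted p = 0.402). The cause was not tested. Leaving out 1 sample at a time gave 29 to 36 members lower at day 6 against YAP1 ON tumors and 3 to 5 lower in hbHep against FAH livers. An interval within 500 bases in place of one over the start gave 38, 38, 39, 38 and 38 of 40 member starts for YAP1 ON tumor, days 14, 33 and 64 and liver. The replicate block gave 33 lower and 0 higher at day 6 against YAP1 ON tumors, with 3663 calls over all genes in place of 4235. Replicate numbers did not pair the samples: 1 of 19 same-numbered pairs had a correlation over 0.1, and in 2 of 19 the best match had the same number. Pseudocount, filter, trend, the first or second hbHep library and values as deposited each kept the direction of every called member. Absolute depth is unknown, so no limit of detection is given.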

Other observations

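Enzymes of nucleotide supply outside the 45 genes differed between hbHep and FAH livers. Of 30 such enzymes, 13 were lower and 4 higher in hbHep by limma, beside 17.1% and 19.9% of all genes tested, with a median log2 fold change of -0.37. The lowest were Paics (-1.18) and Ppat (-1.09), both of purine synthesis, and the highest Impdh1 (0.80), of guanine nucleotide synthesis, and Samhd1 (0.75), which breaks deoxynucleotides down; these genes were named after their values were seen.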
